A study of Mus musculus with 22 samples.

Results

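The cells described here are neutrophils of the mouse terminal ileum with a high combined level of 5 genes, Asprv1, Slfn4, Ifitm1, Stfa2 and Grina. They were chosen in 2 steps from all 22 libraries. First, 637 base cells were taken among 1383 cells with at least 500 transcripts. A base cell had at least 5 transcripts of the neutrophil genes S100a8 and S100a9 together, at most 2 of the macrophage genes C1qa, C1qb and C1qc, and at most 1 of the immature granule genes Ngp, Ltf and Camp. Second, base cells of all libraries were ranked by the score, the transcripts of the 5 genes divided by the transcripts of all named genes (those whose symbols do not start with Gm). The top 15%, 96 cells, were kept and are called high-scoring cells below. The other 541 base cells are the comparison.

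Libraries were made by CEL-Seq2, a plate method that tags each transcript near its 3′ end with a molecular identifier. The cells came from BALB/c recipients aged 7 to 9 weeks, lethally irradiated in 2 doses of 5 Gy and sampled 21 days after an allogeneic transplant. All recipients, controls included, received 5000000 bone marrow cells of C57BL/6 donors. The 12 acute graft-versus-host disease (aGVHD) libraries came from mice also given 400000 donor T cells, and the 10 control libraries from mice given none. Donor C57BL/6N mice were female and 7 to 10 weeks old. The sort gate was CD45+H2kb+CD11b+Ly6G+, where H2kb marks donor cells and CD11b with Ly6G marks neutrophils. Library titles form a dated set (6 control and 8 aGVHD libraries) and a G1 set (4 and 4). The labels tie no library to a mouse, so every p-value below measures only how libraries vary, and part of that may be technical.

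Neutrophils leave the bone marrow after a fixed order of granule synthesis, and as they mature they stop making granule proteins and gain chemokine and G-CSF receptors and stefins. Transcripts of granule proteins therefore mark younger cells, and secretory or membrane products mark older ones. In tissue, neutrophils also take up inflammatory programmes with chemokines such as Ccl3 and Ccl4. Of the 5 genes of the score, Asprv1 encodes a retroviral-like aspartic protease best known from skin, Slfn4 is an interferon-inducible Schlafen gene of myeloid cells, Ifitm1 encodes an interferon-induced membrane protein, Stfa2 a stefin that inhibits cysteine proteases, and Grina a membrane protein of the TMBIM family.

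The windows around the start sites of the genes in the score are shown because these genes define the cells; the rule itself put them together. RefSeq (GRCm38.p6) held 4 of the 5, each with 250 bases before and 50 after the start, written 5′ to 3′ on the gene's strand. Capitals mark matches to GAGGAA, the core of the PU.1 motif, on either strand.
Asprv1, chr6:86627924-86628223, plus strand: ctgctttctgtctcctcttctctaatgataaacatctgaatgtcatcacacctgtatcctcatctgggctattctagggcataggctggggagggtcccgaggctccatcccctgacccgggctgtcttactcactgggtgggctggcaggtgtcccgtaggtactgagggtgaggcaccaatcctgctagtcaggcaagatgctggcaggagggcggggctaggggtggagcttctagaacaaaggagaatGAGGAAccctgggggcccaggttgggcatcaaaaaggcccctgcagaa
Slfn4, chr11:83174936-83175235, plus strand: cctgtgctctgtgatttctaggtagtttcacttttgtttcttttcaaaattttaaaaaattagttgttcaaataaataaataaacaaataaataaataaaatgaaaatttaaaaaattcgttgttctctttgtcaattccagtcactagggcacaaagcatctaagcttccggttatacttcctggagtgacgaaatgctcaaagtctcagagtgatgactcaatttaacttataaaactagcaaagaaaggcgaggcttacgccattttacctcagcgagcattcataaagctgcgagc
Ifitm1, chr7:140967826-140968125, plus strand: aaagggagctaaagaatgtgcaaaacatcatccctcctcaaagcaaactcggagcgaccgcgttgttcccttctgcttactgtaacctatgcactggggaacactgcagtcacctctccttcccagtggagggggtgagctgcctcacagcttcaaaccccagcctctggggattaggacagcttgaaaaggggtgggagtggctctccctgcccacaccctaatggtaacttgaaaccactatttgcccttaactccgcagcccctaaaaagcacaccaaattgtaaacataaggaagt
Stfa2, chr16:36408314-36408613, minus strand: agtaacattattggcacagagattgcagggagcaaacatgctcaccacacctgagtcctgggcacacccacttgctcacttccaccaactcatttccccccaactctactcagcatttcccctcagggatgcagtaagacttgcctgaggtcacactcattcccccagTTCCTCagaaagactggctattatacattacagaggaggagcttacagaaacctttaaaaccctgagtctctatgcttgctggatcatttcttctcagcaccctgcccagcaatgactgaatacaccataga

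GAGGAA or its complement stood in 2 of these 4 windows, Asprv1 and Stfa2, and in 28.3% of the 32851 windows of the same length. The core of the interferon-stimulated response element (GAAA, any 2 bases, GAAA) was in none of the 4 and in 3.44% of all windows. The STAT motif TTCNNNGAA was in none of the 4 and in 8.3% of all, and the C/EBP motif TTGCNNAA in none of the 4 and in 10.8% of all. Both strands were searched, and none of these letters overlap a second motif in the 4 windows. CEL-Seq2 reads come from the other end of the transcript. Over the last 400 bases of the coding transcripts of GENCODE vM21, none of the 50-base words of Asprv1, Slfn4 or Grina occurred in another gene's transcripts. Ifitm1 shared 2.0% of its words with Gm7676. Stfa2 shared 19.1% with Gm4758, Gm49652 and Stfa2l1, so the level of Stfa2 is the least certain of the 5.

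The score ran without a gap across the limit: the lowest high-scoring cell had 12.35 and the highest of the others 12.32 transcripts of the 5 genes per 1000 named transcripts. The median was 15.15 per 1000 in high-scoring cells, with a highest value of 29.13, and 4.12 in the others. A high-scoring cell held 4 to 88 transcripts of the 5 genes, with a median of 24. Ifitm1 made up 46.3% of these transcripts in high-scoring cells, Asprv1 17.8%, Grina 15.9%, Slfn4 15.4% and Stfa2 4.7%. Ifitm1 was the most abundant of the 5 in 62 of the 96 cells, Asprv1 in 10, Slfn4 in 9, Grina in 4 and Stfa2 in 1, with ties in 10. The choice therefore leaned on Ifitm1 more than on the 2 genes in the name. Most high-scoring cells carried several of the genes: 51 had transcripts of 4 and 20 of all 5, against 90 and 20 of the 541 others.

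Depth differed little between the kinds of cell. High-scoring cells had a median of 1584.5 named transcripts and the others 1440, and after thinning each cell to 250 named transcripts the medians were 187.5 and 192 genes per cell. Asprv1 was detected in 69.8% of high-scoring cells (67 of 96, 95% exact binomial interval 59.6 to 78.7) and in 40.5% of the others. In 70 macrophage-like cells, with more than 2 C1q transcripts, it was detected in 34.3%, at a median of 4244 named transcripts. These cells passed the same sort gate and carried neutrophil RNA too, with Csf3r in 81.4% and S100a9 in 70.0%. They are therefore no measure of background. At 250 transcripts per cell the 3 Asprv1 shares were 36.5%, 15% and 8.6%. For Slfn4 the shares at that depth were 47.9%, 13.9% and 4.3%. Ifitm1 was detected at that depth in 82.3%, 34.3% and 15.7%. Stfa2 was the rarest, at 26.0%, 3.1% and 2.9%, so its share in the others was near that of the C1q cells. Grina gave 46.9%, 23.7% and 11.4%. Intervals cover counting error only.

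Markers of the labelled cell type were present in high-scoring cells. All 12 neutrophil markers examined were detected. S100a8 and S100a9 are required by the rule, so their detection shows nothing about the cells. Csf3r, the G-CSF receptor, was found in 91.7% of high-scoring cells and 87.2% of the others, and Cxcr2, the receptor for neutrophil chemokines, in 77.1% and 70.2%. The summed neutrophil markers, S100a8 and S100a9 included, ran from 54390 to 120500 CPM over the 8 libraries used below (median 80680), and from 13100 to 46410 in the others (median 34030). The immature neutrophil list, whose Camp, Ngp and Ltf the rule limits, had 7 of 11 markers detected, and its sum was 86.04 to 680.4 CPM in high-scoring cells against 68.92 to 1260 in the others. No marker of T or NK cells was found in high-scoring cells (0 of 10), against 7 of 10 in the others. The others are the larger set of cells, so a 0 in high-scoring cells carries less weight, here and below. Summed macrophage/monocyte markers were lower in high-scoring cells in 8 of 8 libraries (2154 to 6726 against 2946 to 16210 CPM). Of these 18 markers, 14 were detected, and 92.7% of high-scoring and 91.7% of other cells carried at least 1. Mrc1, F13a1 and Fn1 were at 0, as was C1qa, which the rule limits. Ly6c2, also on this marker list, went the other way, higher by a log2 difference of 1.33 in 8 of 8 libraries. Epithelial markers reached 1480 CPM in high-scoring cells and 69250 in the others of 1 library. For B or plasma cells the highest library values were 6544 and 8061, with medians of 0.0 and 47.59, and Cd79a, Cd79b and Mzb1 were at 0 in high-scoring cells. Eosinophil markers peaked at 144.9 and 267.0 CPM, with Prg2, Epx, Ear2, Ear6, Il5ra and Ccr3 at 0 in high-scoring cells. Dendritic cell markers peaked at 422.2 and 708.2, with Ccr7, Flt3, Zbtb46 and Cd209a at 0 in high-scoring cells. Of these, Prg2, Epx, Ear2 and Cd209a were at 0 in the others too. The base population thus held RNA of other cell types, more of it outside the high-scoring cells, and the part of that RNA in the differences below was measured only through the restricted comparison given further on.

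High-scoring cells were found in 16 of 22 libraries, in 12 of 12 aGVHD and 4 of 10 control libraries. They were 84 of 513 aGVHD base cells (16.37%, 95% exact interval 13.28 to 19.87) and 12 of 124 control base cells (9.68%, 5.1 to 16.29). Both intervals pool cells over libraries and cover counting error only, not the spread between libraries. Among control libraries with at least 5 base cells, the shares were 9.09% in replicate 1, 7.69% in replicate 2, 17.39% in replicate 3 and 33.33% in replicate 4, and 0 in replicates 6, 7 and 8. Control replicates 5, 9 and 10 had 2 or 3 base cells each and no high-scoring cell. In aGVHD libraries the share ran from 2.56% to 33.33% with a median of 12.12%, and replicate 8, the highest, supplied 22 of the 96 cells. The groups overlapped over nearly their whole range.

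Control libraries averaged 9.64% ± 12.3 (SD, n = 7) and aGVHD libraries 15.1% ± 10.4 (SD, n = 12), a difference of 5.44 percentage points (two-sided exact permutation test inside title sets, p = 0.2488). This difference did not exceed the spread between libraries. It passed the threshold without control replicate 4, at 9.39 points (exact permutation p = 0.03246), and when libraries with a single base cell or more were let in, at 8.33 points (permutation p = 0.04613). The title sets differed within each group: dated aGVHD libraries held 21.28% high-scoring cells (70 of 329) and G1 aGVHD libraries 7.61% (14 of 184). Dated control libraries held 13.64% (12 of 88) and G1 control libraries 0 of 36. By counting error alone, 0 of 36 allows a share of up to 8.33% by a limit of 3 counts and 9.74% by the exact interval. In dated libraries alone aGVHD exceeded control by 5.65 points (exact permutation p = 0.3885). In G1 libraries alone the difference was 6.95 points, for which the exact permutation test gave p = 0.1333. With 15 arrangements of the labels, that test could not reach a p under 0.05, so it decides nothing. With the score computed after thinning each cell to 250 transcripts, the difference was 2.22 points (exact permutation p = 0.6205).

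**Figure D1:**
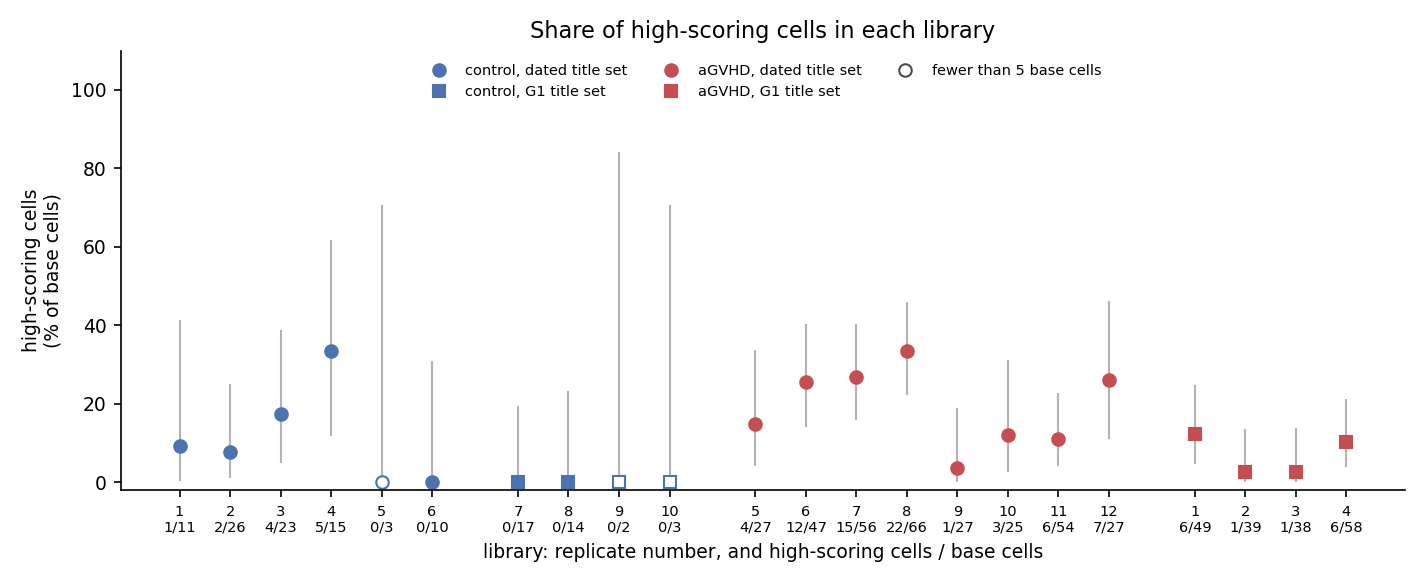
Share of high-scoring cells among base cells (y axis, percent) in each of the 22 libraries (x axis, replicate number with the cell counts below it). Points are libraries, coloured by group and shaped by title set, bars are 95% exact binomial intervals, and open points are libraries with fewer than 5 base cells. Control replicate 4 and aGVHD replicate 8 share the highest value, 33.33%, and every G1 control library is at 0.

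Levels of the 5 genes were summed per library in the 8 libraries with at least 5 cells of each kind, control replicate 4 and aGVHD replicates 1, 4, 6, 7, 8, 11 and 12 (79 high-scoring and 293 other cells). Levels are counts CPM (CPM), counting only named genes other than the 5. Since the rule used these values they are a description with no test. Asprv1 ran from 941.6 to 5964 CPM in high-scoring cells (median 3033) and from 390.6 to 1246 in the others (median 608.0). Slfn4 ran from 677.8 to 7001 (median 3141) and from 137.8 to 756.2 (median 430.6). For both, the lowest library of the high-scoring cells fell inside the range of the others, control replicate 4 for Asprv1 and aGVHD replicate 12 for Slfn4. Ifitm1 spanned 4473 to 10630 CPM (median 7329) against 1085 to 2946 (median 2094). Stfa2 spanned 403.6 to 2033 (median 540.4) against 27.24 to 244.2 (median 119.8). Grina spanned 1762 to 3905 (median 2328) against 436.5 to 1338 (median 1060). These 3 genes did not overlap between the kinds of cell in the 8 libraries.

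**Figure D2:**
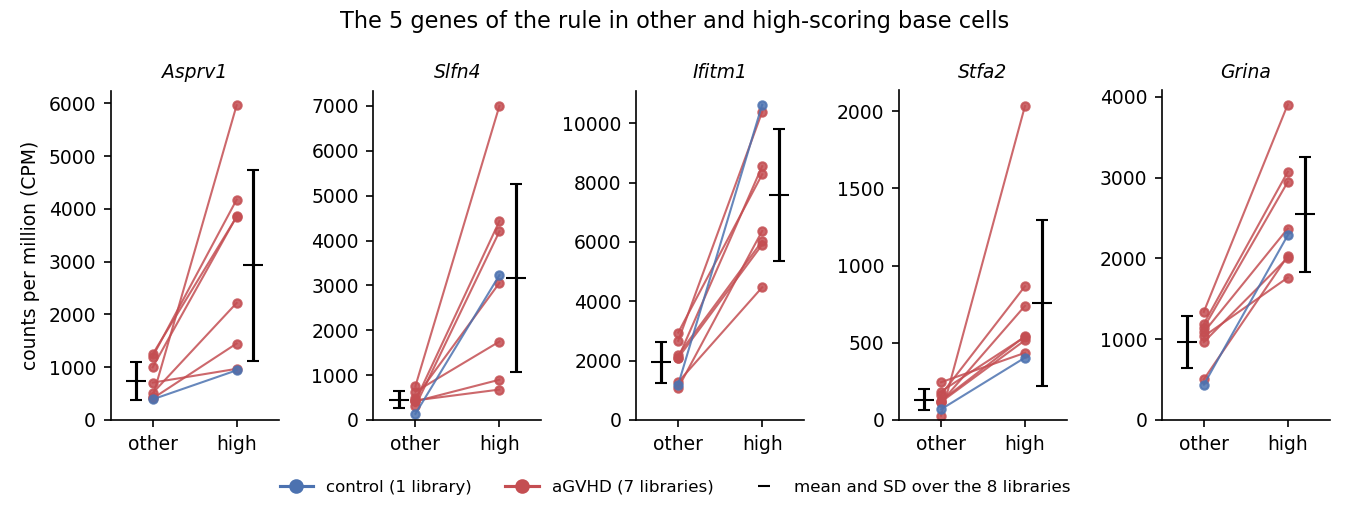
Levels of the 5 genes that define the score (y axis, CPM) in other and high-scoring base cells of 8 libraries, joined by library and coloured by group. Black marks are means with SD over the 8 libraries. Every line rises, as the rule fixes, and the Stfa2 level of aGVHD replicate 12, at 2033, stands above the rest.

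Among high-scoring cells, where the rule sets a lower limit on the summed share, no pair of the 5 genes had a large positive correlation. Across the 96 cells, which share libraries and depth, Spearman's rho was -0.26 between Asprv1 and Slfn4 and -0.25 between Slfn4 and Ifitm1, and the other 8 pairs lay between -0.19 and 0.03. Slfn4 had a rho of 0.35 with the summed interferon response genes, and Asprv1 one of -0.17. Retnlg had a rho of 0.58 with S100a8 and S100a9 and of 0.44 with Lcn2. The interferon response genes had a rho of -0.26 with Retnlg. These are descriptions of sparse counts.

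Whether each gene of the score accompanied the other 4 was examined by leaving it out, taking the top 15% by the remaining genes and fitting the library sums with limma over all genes. The 5 genes were proposed together with earlier results of these data known, so this is no independent support. Stfa2 was 396.6 to 808.1 CPM in cells chosen without it (median 456.2) and 68.77 to 243.6 in the rest (median 138.9), a log2 difference of 1.83 ± 0.29 (SE; limma adjusted p = 0.0002919, higher in 7 of 7 libraries). Its ranges did not overlap; 20.6% of all genes were called higher in that comparison. Slfn4 had medians of 1306 and 504.3 CPM and a difference of 1.46 ± 0.29 (SE; limma adjusted p = 0.0005418, 8 of 9 libraries), where 30.6% of genes were called higher. Grina was higher by 1.07 ± 0.2 (SE; limma adjusted p = 0.0006813, 8 of 8), with medians of 2048 and 1085 and a background of 18.1%. Ifitm1 was higher by 0.92 ± 0.16 (SE; limma adjusted p = 0.0005124, 8 of 8), with medians of 4020 and 2287 and a background of 23.0%, and only 66 of the 96 cells stayed the same without it. Asprv1 was the weakest, at 0.76 ± 0.26 (SE; limma adjusted p = 0.03379, 6 of 8), with medians of 1160 and 856.6 and a background of 18.5%. Its call was lost when cells of extreme depth or stress were left out, at 0.61 (limma adjusted p = 0.07966).

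Genes outside the score were then compared between high-scoring and other cells in the same 8 libraries, with the library as a block. Of 586 genes tested with limma, 195 (33.3%) passed an adjusted p under 0.05, with 113 (19.3%) higher and 82 (14%) lower in high-scoring cells. The median log2 difference over all 586 was 0.18. With limma-trend, an alternative to the voom weights, that median was -0.01, with 68 genes higher and 80 lower. The excess of positive differences therefore depended on the method. Every named gene is part of the score's denominator, so a gene that takes a large share of a cell's transcripts bears on the choice, and cells of the same library share their handling. Several S100 alarmins, genes listed for late maturation and interferon response genes were higher. Most ribosomal protein genes, the mitochondrial transcripts and the chemokines Ccl3 and Ccl4 were lower. The levels of 8 genes (1.37%) lay wholly above those of the others in the 8 libraries, and those of 20 genes (3.41%) wholly below.

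The largest increase was in Retnlg, a resistin-like secreted protein of neutrophils. It ran from 1345 to 15940 CPM in high-scoring cells (mean 6832 ± 5684, SD, n = 8) and from 81.71 to 4847 in the others (mean 1512 ± 1942, SD). The log2 difference was 2.46 ± 0.45 (SE; limma adjusted p = 0.000868), with higher levels in 7 of 8 libraries. The ranges overlapped, aGVHD replicate 1 being highest and control replicate 4 lowest. Wfdc21, a small secreted WFDC-domain protein, followed at 2.07 ± 0.39 (SE; limma adjusted p = 0.0009584), with medians of 650.9 and 161.2 CPM and higher levels in 8 of 8 libraries.

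Of the 5 S100 and annexin genes tested, 4 were higher and none lower, with a list median of 1.53. Of all genes, 19.3% were higher. S100a9 was 17560 to 49300 CPM in high-scoring cells (mean 30480 ± 8950, SD, n = 8) and 3929 to 14350 in the others (9599 ± 4008), a log2 difference of 1.60 ± 0.21 (SE; limma adjusted p = 0.0002765). S100a8, its partner in calprotectin, was 12240 to 38070 against 1976 to 9774 CPM, a difference of 1.53 ± 0.21 (SE; limma adjusted p = 0.0002765). Neither overlapped between the kinds of cell, although every base cell had to carry these genes. S100a6 (1.53) and S100a11 (0.97), further calcium-binding proteins, were higher in 8 of 8 libraries.

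Among genes of late maturation and of blood neutrophils, 14 of 25 tested were higher, none was lower, and the median was 0.72. Of all genes, 19.3% were higher. The lists share genes: Mmp8 is also counted with the granule genes, Csf3r with G-CSF signalling and Cxcr2 with the receptors. Retnlg and Mmp8 did not mark late cells alone here. Both were lower in high-scoring than in the granule-rich cells described below, in 3 of 3 libraries (Mmp8 1271 to 2551 against 3999 to 6153 CPM). Selplg, the selectin ligand PSGL-1, ran from 869.4 to 3389 CPM against 160.8 to 775.5, with no overlap and a log2 difference of 1.44 ± 0.25 (SE; limma adjusted p = 0.0006853). Mxd1, a MAX-binding repressor of late neutrophils whose naming followed a look at its values, was higher by 1.14. Slpi, an inhibitor of neutrophil elastase, was higher by 1.20, and its level in control replicate 4, 4574 CPM, was far above the median of 1117. The stefin and WFDC list had 3 of 5 tested higher, Wfdc21, Slpi and Wfdc17 (1.14), while Cstb and Cst3 did not pass at -0.76 and -0.16.

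**Figure D3:**
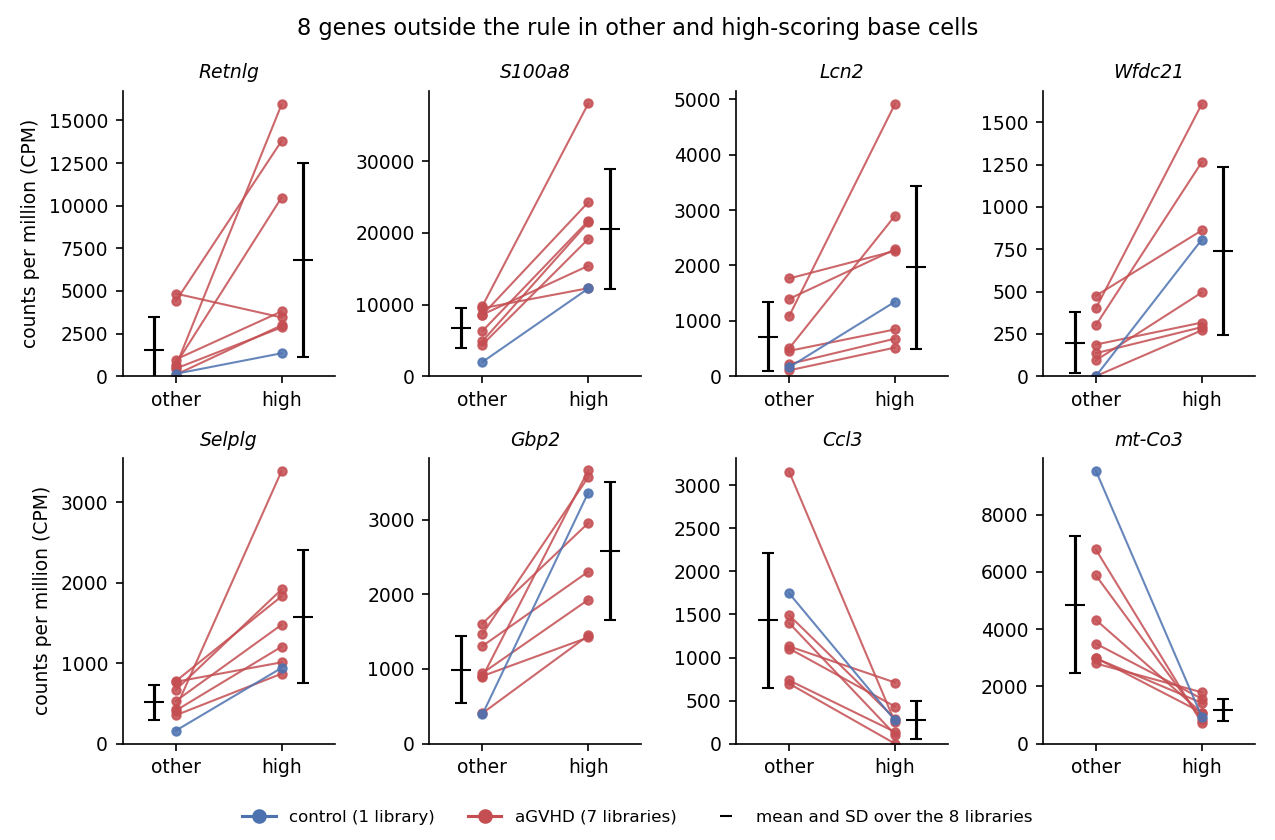
Levels of 8 genes outside the score (y axes, CPM) in other and high-scoring base cells, joined by library and coloured by group, with the mean and SD over the 8 libraries in black. S100a8 and Selplg are separated between the kinds of cell, Retnlg and Lcn2 vary widely between libraries, and Ccl3 and mt-Co3 are lower in the high-scoring cells of all 8.

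Of 13 interferon response genes tested, 7 were higher and none lower, with a median of 0.73, where 19.3% of all genes were higher. Gbp2, an interferon-induced GTPase, ran from 1423 to 3662 CPM in high-scoring cells (mean 2582 ± 927.7, SD, n = 8) and from 390.6 to 1608 in the others (990.1 ± 451.8). The log2 difference was 1.29 ± 0.21 (SE; limma adjusted p = 0.0004197), in 8 of 8 libraries. Zbp1, a nucleic acid sensor, was higher by 1.45, Oasl2, an oligoadenylate synthetase-like protein, by 1.35, and Rsad2, the antiviral enzyme viperin, by 1.12. Rsad2 was slightly lower, by -0.11 and not past the test, in the G1 set alone. Isg15, a ubiquitin-like modifier chosen after its value was seen, was higher by 1.01. The other 6 did not pass, among them Irgm1, Irf1, Ifi47, Igtp and Cxcl10, with differences from -0.07 for Irgm1 to 1.13 for Cxcl10.

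Families of the score's own genes gave mixed values. Both Ifitm genes tested beside Ifitm1 were higher, Ifitm3 by 1.01 ± 0.2 (SE; limma adjusted p = 0.001228) and Ifitm2 by 0.91 ± 0.23 (SE; limma adjusted p = 0.005885). Ifitm3 ran from 724.5 to 1701 CPM against 203.5 to 793.0. Of the Schlafen genes, Slfn1 and Slfn2 were tested and neither passed, at 0.58 and 0.33 (limma adjusted p = 0.1379 and 0.2912). Slfn2 turned to -0.27 in the G1 set alone and to -0.19 with no filter on low counts.

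Lcn2, the siderophore-binding lipocalin-2 of specific granules, was higher by 1.45 ± 0.28 (SE; limma adjusted p = 0.001027), at 516.2 to 4917 CPM against 104.8 to 1764, in 8 of 8 libraries. Its ranges overlapped, and aGVHD replicate 7 had the highest value. Of the 7 granule genes tested, Mmp8, a neutrophil collagenase (1.10), and Hp, haptoglobin (0.82), were also higher and Lyz1, a lysozyme, was lower (-0.85), while Chil1, Cybb and Itgam did not pass. Single libraries decided 3 of these calls. In the 8 fits that each left out 1 library, Mmp8 ran from 0.80 to 1.48 and was lost without aGVHD replicate 1, 7 or 11. Hp ran from 0.63 to 1.0 and was lost without aGVHD replicate 1. Lyz1 ran from -1.02 to -0.64 and was lost without aGVHD replicate 1, 4, 6 or 11. It was also lost with the quality filter, which left out cells of extreme depth or stress, and its sign turned, to 0.12, without cells holding over 1% of marker transcripts of other cell types, and to 0.38 against the other cells of highest score.

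In the G-CSF and STAT3 list, 3 of 9 genes tested were higher and none lower, where 19.3% of all genes were higher. With so few genes, this count does not set the list apart. Csf3r was 2463 to 4609 CPM against 758.2 to 2386, without overlap, and differed by 0.77 ± 0.19 (SE; limma adjusted p = 0.006115). Its call was lost in 7 of 19 other settings. Cebpb, a C/EBP transcription factor of emergency granulopoiesis, was higher by 0.67, a call lost in 8 of 20 other settings, among them the 1% limit on markers of other cell types (0.44). Pim1, a kinase induced by STAT signals, was higher by 0.44, from 0.41 to 0.52 with 1 library left out. The Pim1 call was lost without aGVHD replicate 1, 6, 8, 11 or 12, and in 11 of 20 other settings. Stat3 and Socs3 did not pass, at 0.04 and 0.25.

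Of the 16 pattern and chemotaxis receptors, 2 were higher and none lower, where 19.3% of all genes were higher, so the list did not stand apart by this count. Cd14, the lipopolysaccharide co-receptor, ran from 3118 to 9416 CPM against 800.4 to 3907, with a difference of 1.14 ± 0.21 (SE; limma adjusted p = 0.0008144). Control replicate 4 had the highest level. Cxcr2 was higher by 0.63, between 0.55 and 0.75 with 1 library left out. Its call was lost without aGVHD replicate 1, 7, 8 or 11, and in 11 of 19 other settings. Cxcr4, the receptor that retains neutrophils in marrow and rises with age, did not pass at -0.10 (limma adjusted p = 0.8286).

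Of 21 tissue, ageing and activation genes tested, 3 were higher and 4 lower, shares near those of all genes (19.3% higher and 14% lower), so the list as a whole did not stand apart. Ccl3, the chemokine MIP-1 alpha, was 0 to 709.8 CPM in high-scoring cells (mean 273.5 ± 219.8, SD, n = 8) and 697.3 to 3159 in the others (1433 ± 784.6). It was lower in all 8 libraries, with a log2 difference of -2.42 ± 0.37 (SE; limma adjusted p = 0.0004197). Ccl4, MIP-1 beta, differed by -2.19 ± 0.39 (SE; limma adjusted p = 0.0008018), in 7 of 8 libraries, and Il1a, an alarmin cytokine, by -1.62 ± 0.35 (SE; limma adjusted p = 0.002226). Tnf, the inflammatory cytokine, differed by -1.39, from -1.62 to -0.99 with 1 library left out. It lost the call without control replicate 4 or aGVHD replicate 4, 7 or 11, and in 11 of 19 other settings. The others of aGVHD replicate 7 had the highest Ccl3, Il1a and Tnf, at 3159, 2610 and 2877 CPM. Plaur, the urokinase receptor (1.01), Nfkbiz, an inducible regulator of NF-kB (0.66), and Txnip, a thioredoxin inhibitor (0.56), were the 3 higher genes, named after their values were seen. Txnip ran from 0.51 to 0.65 with 1 library left out and was lost without aGVHD replicate 4, 6, 7 or 11. In other settings the call was lost in 15 of 19 for Txnip, 8 of 19 for Plaur and 7 of 19 for Nfkbiz. Il1b, also named afterwards, did not pass at 0.12 ± 0.17 (SE; limma adjusted p = 0.5878). Its mean level was 10310 CPM, and its sign turned under 5 of 20 other settings.

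Further genes among the 15 largest increases belong to none of the gene lists. Fam65b, an inhibitor of RhoA, was higher by 1.5, and Amica1, a junctional adhesion molecule, by 1.47. Sp140, a nuclear body protein, was higher by 1.46 and Trim30b by 1.34. The Trim30b call was lost in 3 of 12 other settings: limma-trend, no filter on low counts and the G1 set alone. Its lowest difference was 0.28. Ly6c2, a surface protein of myeloid cells and 1 of the macrophage/monocyte markers above, was higher by 1.33. Trim30b and Sp140 were lower in the high-scoring cells of control replicate 4, by -91.9 and -3.3 CPM, and higher in those of all 7 aGVHD libraries. Of 13 actin cytoskeleton genes, 5 were higher and none lower, where 19.3% of all genes were higher. Among the 5 was Lcp1, the actin bundler L-plastin, higher by 0.59 ± 0.17 (SE; limma adjusted p = 0.0146). The Lcp1 call was lost in 10 of 20 other settings, among them the quality filter (0.39) and the 1% limit on markers of other cell types (0.30). Vasp (0.68), Coro1a (0.66) and Actg1 (0.59), further actin regulators and an actin, each lost the call without some single libraries: Vasp without aGVHD replicate 6, 7 or 11 (0.56 to 0.81 over the 8 fits), Coro1a without aGVHD replicate 4, 6, 7, 8 or 11 (0.55 to 0.79) and Actg1 without aGVHD replicate 1, 7, 8 or 11 (0.43 to 0.80). In other settings the call was lost in 12 of 19 for Vasp, 12 of 19 for Coro1a and 7 of 20 for Actg1. None of the 6 glycolysis and hypoxia genes tested passed, with Pkm at 0.14 and Gapdh at -0.43.

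Ribosomal protein genes, which code for parts of the ribosome, were lower in 39 of 45 tested and higher in none, with a median of -1.43. Of all genes, 14% were lower. Rps19 was 0 to 215.4 CPM in high-scoring cells and 291.2 to 735.4 in the others, without overlap, and differed by -2.24 ± 0.4 (SE; limma adjusted p = 0.0008018). Rpl32 had the largest decrease, -2.57 ± 0.36 (SE; limma adjusted p = 0.0002765), from 11 transcripts in all high-scoring cells of the 8 libraries. Rpl10a (-2.05), Rps15 (-2.04), Rpl35a (-2.02) and Rpsa (-2.15) and Rps26-ps1 (-2.02), a pseudogene by its symbol and so uncertain as to the source of its reads, were among the 10 largest decreases. Mitochondrial transcripts, encoded in the organelle's own genome, were lower in 14 of 14. mt-Co3 was 724.5 to 1794 CPM against 2801 to 9535, without overlap, and differed by -1.97 ± 0.32 (SE; limma adjusted p = 0.0004376). mt-Atp6, mt-Atp8 and mt-Nd3 differed by -1.78, -1.74 and -1.65. Mitochondrial transcripts were 5.3% of named transcripts in high-scoring cells and 11.4% in the others. Both classes are abundant enough to weigh in the score's denominator. Without them in the denominator, 92 of the 96 cells were chosen again, and 120 genes were higher and 72 lower.

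**Figure D4:**
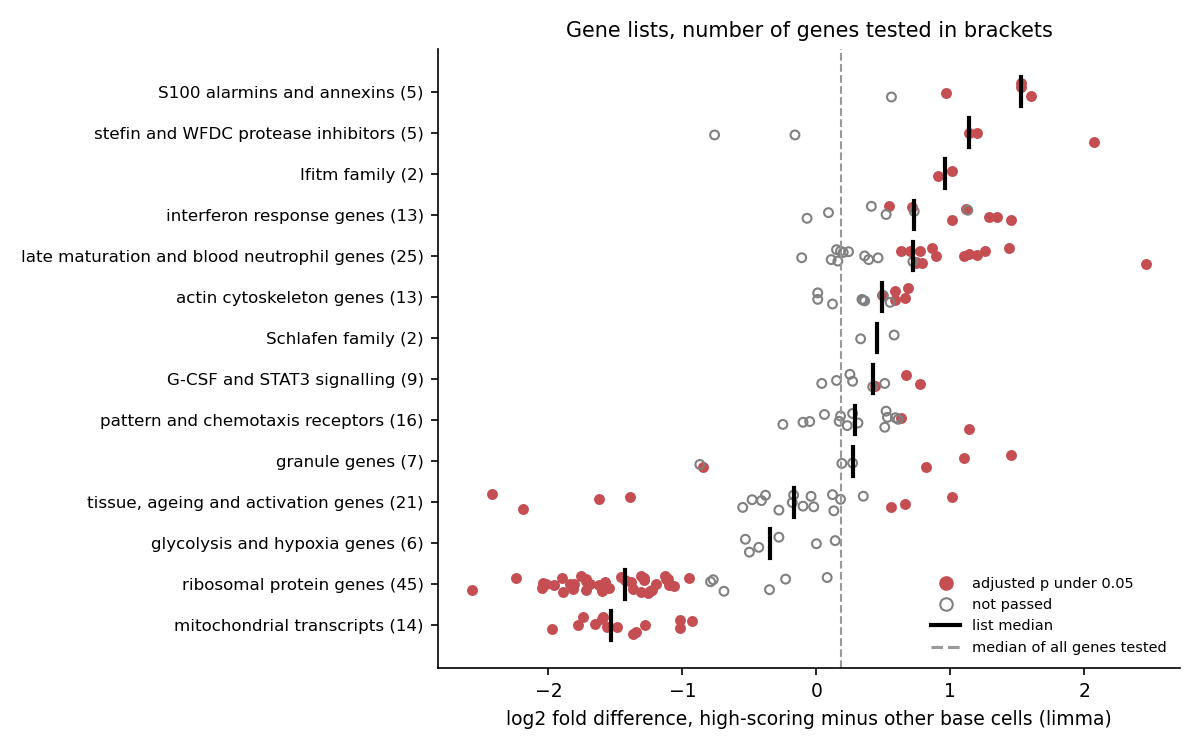
Log2 differences between high-scoring and other base cells (x axis, limma) for the tested genes of 14 lists (y axis, number tested in brackets). Filled points passed an adjusted p of 0.05, bars are list medians, and the dashed line is the median of all 586 genes, 0.18. The S100 list has the highest median, 1.53, and the mitochondrial list the lowest, -1.53.

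Several of these differences followed the score below the limit as well. The other cells were divided by score into 3 equal parts, low, middle and upper, and levels were averaged over the 8 libraries. S100a8 rose from 3072 ± 1464 CPM (SD) in the low part to 6941 ± 2992, 11690 ± 4674 and, in high-scoring cells, 20230 ± 8204. Retnlg had means of 454.5, 1552, 2813 and 6720, and the summed interferon response genes 7558, 10040, 13000 and 18460. Ccl3 did not follow the order: it was highest in the middle part, at 2169 ± 1834, and 268.9 ± 215.8 in high-scoring cells. Il1b was highest in the upper part of the others, at 13260 ± 6153, against 10920 ± 4104 in high-scoring cells. Mitochondrial transcripts fell from 180000 ± 104900 to 103100, 61800 and 54170 CPM, and epithelial markers from 18140 ± 32490 to 818.2, 1066 and 369.8. The low part therefore differed from high-scoring cells also in epithelial RNA and mitochondrial share.

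**Figure D5:**
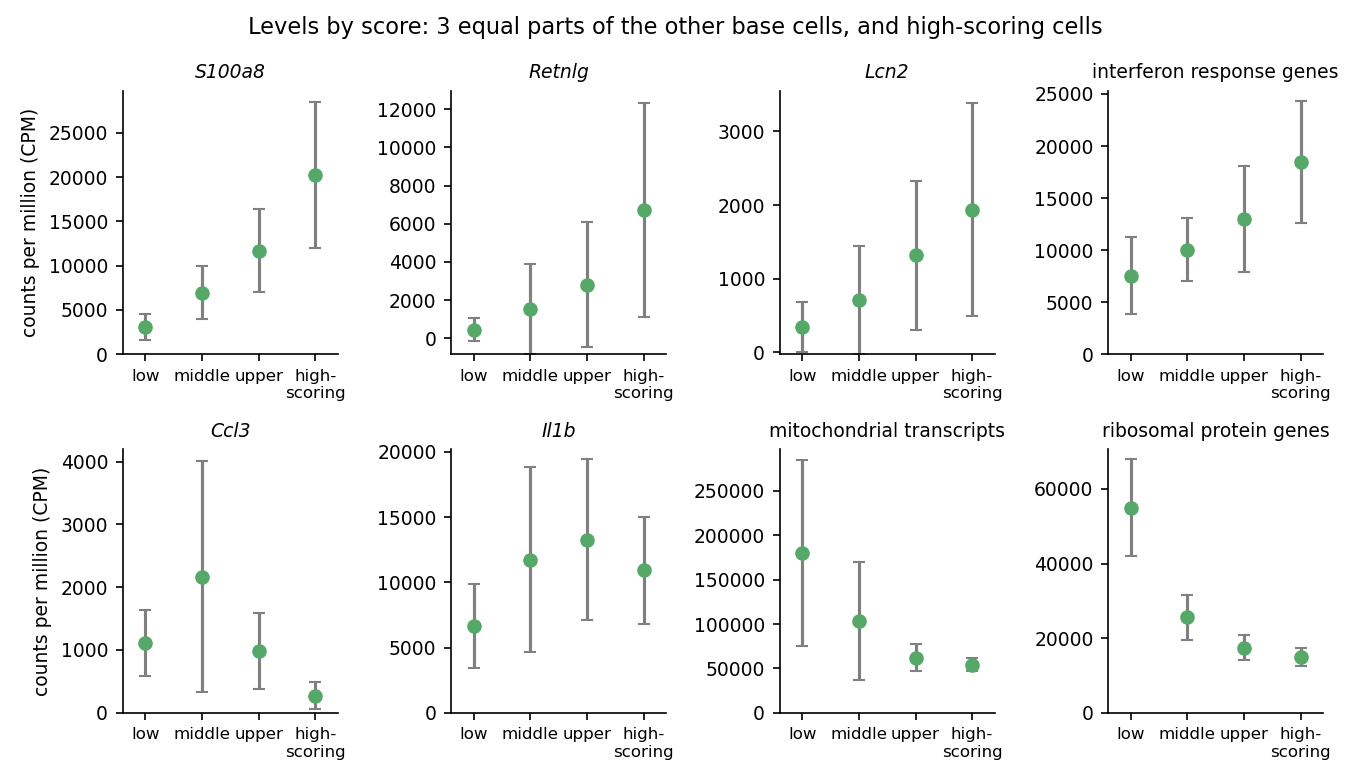
Mean levels (y axes, CPM, with SD over 8 libraries) in the low, middle and upper parts of the other base cells by score and in the high-scoring cells (x axes). S100a8, Retnlg, Lcn2 and the interferon response genes are highest in high-scoring cells, Ccl3 peaks in the middle part, and mitochondrial and ribosomal transcripts are highest in the low part.

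Against the upper part of the others alone, 282 genes could be tested, 9 were higher and none lower with limma, and 43 passed an unadjusted p of 0.05. Ccl3, Ccl4, Il1a, Rpl32 and Rps19 were not among the 282, so their decreases were not tested there. Ccl3 averaged 985.5 ± 601.2 CPM (SD) in the upper part and 268.9 ± 215.8 in high-scoring cells. mt-Co3 was tested and did not pass, at -0.59. Of the calls from the full comparison, 98 were tested there, and 95 had the same direction. Retnlg (1.43), Ly6c2 (1.56), S100a6 (0.91), S100a8 (0.84), S100a9 (0.87), Selplg (0.87) and Gbp2 (0.87) were still called higher. Lcn2 and Mxd1 were not. When all cells with over 1% of their named transcripts from markers of other cell types were left out (86 high-scoring cells remained), 41 genes were higher and 20 lower, of 564 tested, and 165 of 168 earlier calls kept their direction. Retnlg (2.16), S100a8 (1.26), Lcn2 (1.23), Gbp2 (1.14), Ccl3 (-2.37) and mt-Co3 (-1.48) remained past the threshold. Slpi and Csf3r did not.

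The same contrast was read in libraries outside a fit. Genes called in the 7 aGVHD libraries (132 higher, 80 lower) were compared with control replicate 4, where 118 of the 132 (89.4%) had a positive difference, as did 63.4% of all genes, and 76 of the 80 (95%) a negative one, as did 36.6% of all. In control replicate 3, which had 4 high-scoring cells, these shares were 67.4% against 55.6% and 82.5% against 44.4%. Genes called in the dated set kept their sign in the G1 set for 80 of 96 higher genes (83.3%, against 54.4% of all) and 63 of 65 lower genes (96.9%, against 45.6%). In the G1 set alone, with 2 libraries, 13 genes were higher and 36 lower.

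High-scoring cells differed from 51 granule-rich cells, which had more than 1 transcript of Ngp, Ltf and Camp and otherwise met the base conditions. In the 3 aGVHD libraries with at least 5 of each (replicates 4, 6 and 7), the values are a description, since 3 pairs cannot reach an exact p under 0.05. Retnlg was 3389 to 13560 CPM in high-scoring cells and 12200 to 26750 in granule-rich cells, and Lcn2 was 2224 to 4829 against 8030 to 9384. S100a8 was also lower in high-scoring cells in all 3 libraries, at 12070 to 37380 against 41360 to 61220. These 3 genes, higher in high-scoring than in other base cells, were thus lower in all 3 libraries than in granule-rich cells. For 3 interferon response genes, looked at because they were called higher above, the order was the opposite: Gbp2 was 1397 to 3601 against 391.0 to 776.8, Isg15 637.8 to 2648 against 266.6 to 497.2, and Oasl2 651.3 to 1271 against 106.6 to 326.3. Il1b was 7592 to 15330 against 4212 to 8604. The 5 genes of the score chose only the high-scoring cells, so their values here show the rule: Asprv1, Ifitm1 and Grina were higher in high-scoring cells in 3 of 3 libraries, and Slfn4 and Stfa2 in 2 of 3.

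Between groups, base cells of 7 control and 12 aGVHD libraries were compared with the title set as a covariate. With limma no gene of 887 (0.0%) passed an adjusted p of 0.05; at an unadjusted p under 0.05, 67 (7.55%) were higher and 52 (5.86%) lower in aGVHD. Fewer high-scoring cells and less RNA of a gene per cell cannot be told apart in these sums. Asprv1 was 110.7 to 651.6 CPM in control (mean 365.6 ± 227.5, SD, n = 7) and 191.2 to 2145 in aGVHD (937.5 ± 692.6, SD, n = 12), a log2 difference of 1.03 ± 0.45 (SE; limma adjusted p = 0.3618). Slfn4 was 295.2 to 586.1 against 409.1 to 1687, with 11 of 12 aGVHD libraries above the control mean, a difference of 0.73 ± 0.29 (SE; limma adjusted p = 0.309). Ifitm1 differed by 0.83 ± 0.31 (SE; limma adjusted p = 0.2657), Stfa2 by 0.65 and Grina by 0.18. The sign was positive for all 5, the ranges overlapped for each, and Grina had -0.07 where at least 20 base cells were asked of a library.

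By list, counts higher in aGVHD at an unadjusted p under 0.05 stand beside 7.55% of all genes. They were 4 of 5 S100, 3 of 6 granule, 3 of 17 interferon response, 2 of 2 Schlafen and 2 of 5 stefin and WFDC genes. The G-CSF and STAT3 list had 4 of 10, the pattern and chemotaxis receptors 4 of 20 and the late maturation genes 4 of 25. Each remaining list had 1 or 0, and no gene passed the adjusted test. Of 60 ribosomal protein genes, 18 were lower at the unadjusted p, where 5.86% of all genes were lower.

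Within high-scoring cells, only control replicate 4 had 5 of them, so no test between groups was made. The 12 control cells pooled had 1227 Asprv1 CPM (95% exact Poisson interval 768.7 to 1857, from 22 transcripts, counting error only), and the 7 aGVHD libraries ran from 953.2 to 5877 with a median of 3780. For Slfn4 the control value was 2620 (1925 to 3485) against 667.8 to 6884. Slpi in control cells, 3401 (2601 to 4369), lay above the aGVHD range of 741.4 to 1362, as did Actg1 with 10650 against 2860 to 6952. Retnlg, S100a8, Lcn2 and Gbp2 in control cells lay inside the aGVHD ranges, at 4739, 14500, 836.3 and 2955 CPM.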

How the data were processed

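Single cells of 22 CEL-Seq2 libraries (10 control, 12 aGVHD) were analysed from tables of 23091 genes in all by 192 barcodes. The deposited values are, from their form, counts of transcripts estimated from molecular identifiers by the authors, entered as another unit since they need not be whole, and they were rounded here. The submitters' processing notes name bcl2fastq 2.17.1.14 and BWA 0.6.2-r126. For the genome build, nothing is given in the sources used here.

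Totals ran from 45607 to 360054 transcripts per library, and kept cells from 11 to 60 in control and 74 to 95 in aGVHD libraries. Gene models whose symbols start with Gm were left out of scores and tests; named genes were 62.4% of transcripts in high-scoring and 54.7% in other base cells. Libraries use the same 192 barcode numbers: base cells carried 188 of them, 172 in more than 1 library, and no kept cell repeated another's values. Doublets were not called, but an alternative left out cells over 4 times the median total or over 2% Kcnq1ot1.

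Transcripts were summed per library and tested with limma 3.58.1 (R 4.3.3), voom weights and trimmed-mean scaling (0.3 of ratios, 0.05 of levels), with a low-count filter (10 transcripts in a library of median size, 15 over all) and Benjamini-Hochberg adjustment. A count model was not used because the unit could not be entered as counts. Shares were compared by permuting group labels inside title sets, exactly or with 100000 resamples where both groups had 10 or more libraries (scipy 1.17.1, Python 3.11.15). The scripts were tested on simulated data. The fixed rule named the 15 largest increases and 10 largest decreases among calls with the same sign in at least 80% of libraries, and up to 4 genes per list, 1 of which is not reported here. The members, gene lists and markers were chosen with earlier results of these data known. Alternatives are given in the closing section.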

Additional observations from a re-analysis of the deposited data

Results flagged for a closer look

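Values were searched for a library far from the rest of its set (Dixon's test). A set held either the 7 control libraries or the 8 libraries of the comparison between kinds of cell, 7 aGVHD and 1 control. In the sets of 8, control replicate 4 was thus set against aGVHD libraries only, and group and library cannot be told apart for it. Among 122 sets, 15 such values turned up, where chance gives about 1 in 20 sets. In aGVHD replicate 7, S100a9 (49300 CPM) and S100a8 (38070) stood above the other libraries in high-scoring cells, and Ccl3 (3159), Il1a (2610) and Tnf (2877) in other base cells. In control replicate 4, the only control library of that comparison, Slpi (4574) and Cd14 (9416) were high in high-scoring cells, Rps15 (574.4) and mt-Nd3 (2504) were high in the others and Csf3r (758.2) was low there. In aGVHD replicate 4, Fam65b and Trim30b (both 319.9) were high in the others. In aGVHD replicate 12, Selplg (3389) and Stfa2 (2033) were high in high-scoring cells, and in aGVHD replicate 11 Rpl32 (422.2) was.

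High-scoring minus other cells had the opposite sign in control replicate 4 and in all 7 aGVHD libraries for Sp140 (-3.3 CPM), Trim30b (-91.9) and Lyz1 (876); with 1 control library this difference between groups was not tested.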

How the results depend on the processing

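The share of high-scoring cells stayed higher in aGVHD under each alternative run, from 3.78 to 9.39 points with 1 library left out, and 8.33 points with libraries of at least 1 base cell. The 113 higher and 82 lower genes became 16 and 3 with the top 10% of cells, 72 and 50 with the score of thinned cells, 13 and 5 (46 genes tested) with thinned sums, 3379 and 557 (10520 tested) with no filter on low counts, and 13 and 36 in the G1 set alone. The higher genes were 68 with limma-trend, and the lower genes 40 with at least 8 cells of each kind and 41 with the quality filter. Alternatives chosen after seeing the data gave 24 and 37 with at least 20 S100a8 and S100a9 transcripts per cell, 41 and 20 with at most 1% marker transcripts of other cell types, 9 and 0 against the upper part of the others, and 21 lower genes with mitochondrial and ribosomal genes left out. Only 282 genes could be tested against the upper part, and Ccl3 was not among them. With 1 library left out the counts of higher and lower genes ran from 85 to 137 and from 73 to 84. Except for those with no filter, the top 10% of cells, the G1 set, the 1% limit and the upper part, each alternative kept the direction of all earlier calls it tested. In place of 0.18, the median of all genes was 0.28 without scaling, 0.6 with no filter on low counts and -0.01 with limma-trend.

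Between groups, no gene was called with 1 library left out. Some calls appeared with no filter (27 higher, 13 lower), limma-trend (3 higher) and at least 20 base cells (4 lower). Same-numbered dated libraries did not deviate together (correlations -0.37, -0.36, 0.24, 0.02 and 0.18), so the numbers were not taken as pairs; with the replicate block 3 genes were lower, and in the same libraries without it 1. Under that replicate block the share differed by 8.99 points (exact permutation p = 0.125). With 32 arrangements, that test could not reach a p under 0.05 either. Without extreme cells the left-out Asprv1 fell to 0.61.

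Of 1504 fits of 59 genes between the kinds of cell, 1204 kept the side of the threshold, 275 lost it, 7 gained it and 18 changed sign. Those were Slfn2 with no filter (-0.19) and in the G1 set (-0.27); Rsad2 (-0.11), Vasp (-0.33) and Actg1 (-0.12) in the G1 set; Lyz1 with the 1% limit (0.12) and against the upper part (0.38); Pim1 with no filter (-0.06); Pkm with at least 8 cells (-0.01), no filter (-0.32), at least 20 S100 transcripts (-0.06) and the 1% limit (-0.13); Gapdh with the top 10% (0.12); and Il1b with no filter (-0.35), in the G1 set (-0.24), with at least 20 S100 transcripts (-0.10), with the 1% limit (-0.08) and against the upper part (-0.10). Between groups Grina turned to -0.07 with at least 20 base cells and to 0.00 with the quality filter. The cause was not tested. High-scoring cells could not be compared between groups under any alternative, as fewer than 3 control libraries had enough of them. At 5 to 22 high-scoring cells per library, genes of low level were below the filter, and their differences were not detectable at this depth.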
